A study of Drosophila melanogaster with 4 samples.

Results

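H3K36me2, histone H3 carrying 2 methyl groups on lysine K36, was mapped by chromatin immunoprecipitation and sequencing (ChIP-seq) in ML-DmBG3-c2 cells. The subject here is the short enriched regions of arm 2L, the left arm of Drosophila melanogaster chromosome 2. An enriched region is called a cluster below. Members were the clusters of the authors' combined list on 2L that measured under 10 kb and had a midpoint below position 21011545, which leaves out the last 2 Mb before the centromere. There were 877 such focal clusters among the 1042 enriched clusters of 2L and the 6396 of the combined list. The members were chosen by measured values, their position and length in the combined list, so their positions, lengths and scores in that list are a description and were not tested.

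Both groups of the series, 2 ChIP samples and 2 samples of input DNA, came from the same cultured line, which the labels derive from the central nervous system at the third instar larval stage. The genotype label is y v f mal, the sex is labelled unknown, and the labels list no treatment. The antibody against H3K36me2 was a mouse monoclonal, and the line is the only cell source, so nothing here compares cell types. Groups follow the titles. The description field goes against the title for ChIP replicate 1, which it calls input DNA, and it names both kinds of DNA for ChIP replicate 2 and input replicate 1, so values from the replicate lists are printed for each replicate, beside any mean.

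In flies, dimethylation of H3K36 is laid down by the methyltransferases Ash1 and Mes-4, while Set2, which travels with elongating RNA polymerase II, adds the trimethyl form. The mark is found on chromatin of active genes, and Ash1 is known for counteracting Polycomb repression at developmental genes. Polycomb repression relies on methylation of lysine K27 on the same histone tail. No gene annotation of FlyBase r5, the build of the coordinates, was used here, so clusters are named by position and not by gene.

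Focal H3K36me2 clusters occurred in every 1 Mb window of the 21.0 Mb of 2L up to the position limit, at a mean density of 41.7 per Mb, and covered 2.95 Mb, or 14.0% of that stretch. The same length and position limits applied to the replicate lists gave 773 clusters in replicate 1 and 777 in replicate 2. That is 36.8 and 37.0 clusters per Mb (36.9 ± 0.135) and a covered share of 12.75% and 12.66% (12.7% ± 0.0627; SD, n = 2). The combined list thus held more focal clusters than either replicate list. Read depth is unknown, because the lists hold positions and scores without read counts.

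Density changed 4.47-fold between 1 Mb windows. Over 21 full windows the lowest count was 15, the median 42 and the highest 67. The fullest window ran from 8000001 to 9000000 and held 67 members, with 65 clusters in replicate 1 and 63 in replicate 2. It was followed by 65 members from 10000001 to 11000000, where replicate 1 had 50 and replicate 2 had 58, and by 63 members from 6000001 to 7000000, where they had 52 and 48. These 3 windows lay between positions 6000001 and 11000000 and held 22.2% of all members.

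The sparsest windows all lay on the centromere side of position 14000000. From 15000001 to 16000000 there were 15 members, with 12 clusters in replicate 1 and 9 in replicate 2. From 17000001 to 18000000 there were 16 members, with 16 and 14 in the replicates, and from 14000001 to 15000000 there were 17, with 13 and 12. Together the 3 windows held 5.47% of the members. The window between them, from 16000001 to 17000000, was not sparse, at 35 members with 36 and 40 clusters in the replicates. The replicate lists never differed by more than 8 clusters in a window, and the median difference was 3. Similar counts need not stem from the same clusters. In the windows with 15, 16 and 17 members, 9, 7 and 8 of them overlapped both replicate lists (60%, 43.75% and 47.1%). Over all members this share was 71.0%, and over all enriched clusters of the combined list 73.4%. The windows hold few members, and the difference was not tested. Across the 21 windows the counts of the replicate lists had a Spearman's rho of 0.94 and a Pearson's r of 0.97, as a description of lists from the same cell line.

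Split into 3 equal stretches from the telomere, the arm held 313, 338 and 226 members. Replicate 1 gave 275, 298 and 200 and replicate 2 gave 279, 303 and 195, so the stretch nearest to the centromere, from 14007697 to 21011544, was lowest in each list. Its median member length of 2899 bp was the highest of the 3 stretches, against 2656 bp and 2520 bp, and its median score was 0.56, against 0.62 and 0.55. From the telomere, the share of members that overlapped both replicate lists was 73.5%, 72.2% and 65.9% in the 3 stretches. The number of focal clusters in a window bore little relation to the sequence held there by clusters of 10 kb or more (Spearman's rho of -0.08 across 21 windows, given as a description). The window from 10000001 to 11000000, second in focal clusters, held no cluster of 10 kb or more, whereas the sparse window from 17000001 to 18000000 held 7 of them over 160.6 kb.

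**Figure D1:**
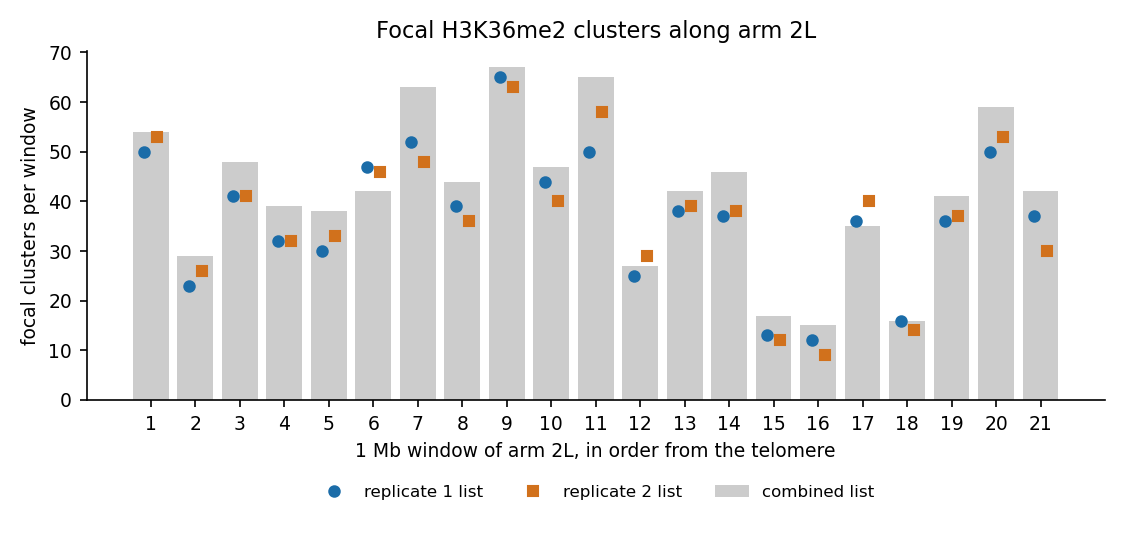
Number of focal clusters in each full 1 Mb window of arm 2L, counted from the telomere; bars are the combined list and points are the same length and position limits in each replicate list. Windows 15, 16 and 18 hold 15 to 17 combined-list members, and both replicate lists have 9 to 16 clusters there.

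Most members had a close neighbour. The gap to the nearest enriched cluster of any length had a median of 1544 bp, with quartiles of 566 bp and 3276 bp, and in the replicate lists the median gap was 1950 bp and 1690 bp. In all, 198 members lay under 500 bp from another cluster, and 83.5% lay under 5 kb from one. In the replicate lists the share under 5 kb was 78.1% and 79.5%. Large gaps were few but long. The 954 gaps between neighbouring clusters of the stretch had a mean of 17.5 kb and a median of 3267 bp, and 46 gaps of 100 kb or more took up 46.6% of all cluster-free sequence. A cluster of 10 kb or more was the nearest neighbour of 75 members, or 8.55%, and such clusters made up 8.17% of the clusters on the stretch.

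**Figure D2:**
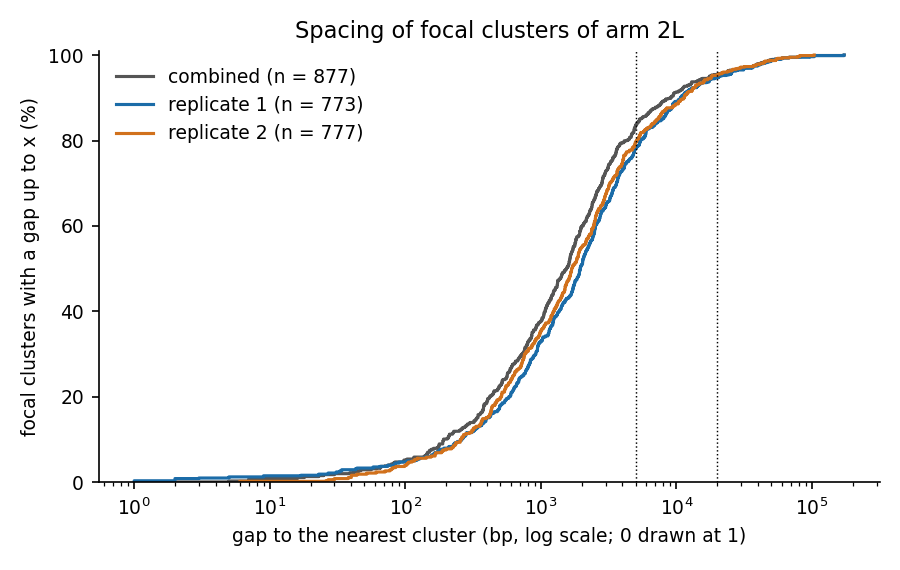
Cumulative share of focal 2L clusters (y axis, percent) against the gap to the nearest enriched cluster (x axis, bp, log scale) in the combined list and in each replicate list. Dotted lines mark 5 kb and 20 kb; between 78.1% and 83.5% of the clusters lie left of the first line.

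A member was called grouped where it belonged to a run of at least 3 clusters with gaps under 5 kb, and isolated where at least 20 kb on each side held no cluster. By these limits 589 members, or 67.2%, were grouped, 40, or 4.56%, were isolated, and 248 lay between. Over all enriched clusters of the combined list 63.3% were grouped and 4.5% isolated, and over those under 10 kb 63% and 4.49%. The shares depend on the distances chosen: with gaps under 2 kb 31.0% of the members were grouped, and with 50 kb free on each side 1.14% were isolated. Spacing comes from the positions that chose the members, so nothing is read from these shares. The replicate lists held 443 and 457 grouped clusters, or 57.3% and 58.8%, and 41 and 37 isolated ones, or 5.30% and 4.76%. Grouping was therefore lower in each replicate list than in the combined list.

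The grouped members lay in 134 runs. A run of at least 3 clusters had a median of 4 clusters and a median span of 24.2 kb, of which a median of 73.9% was covered. In 94 of these runs every cluster was under 10 kb, and 40 runs also held a longer one. The remaining clusters of the stretch were 162 single ones and 78 runs of 2.

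The richest run held 13 focal clusters over 79.7 kb from 4976023 to 5055748, with gaps of at most 4522 bp. Replicate 1 had 12 clusters in it and replicate 2 had 13. In replicate 1 the member from 5012207 to 5020439 was split into 2 clusters. Of the 13 members of the run, 11 were found in both replicates and 2 in replicate 2 only. Its strongest member ran from 4981475 to 4984977 (3503 bp) and scored 2.19 in the combined list, 2.24 in replicate 1 and 2.15 in replicate 2. A member of similar strength from 4993977 to 4997927 scored 2.15, 2.12 and 2.21. Between these lay a short member of 1627 bp, from 4989500 to 4991126, which scored 0.26 in the combined list, had no counterpart in replicate 1 and scored 0.37 in replicate 2. The run thus mixed strong and weak clusters, and its combined scores ranged from 0.10 to 2.19.

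A run of 11 focal clusters from 12688716 to 12739479 was more compact, with a median gap of 700 bp and 80.4% of its 50.8 kb covered. It ended in the member with the highest combined score of all 877, from 12734736 to 12739479 (4744 bp), at 2.80 in the combined list, 2.67 in replicate 1 and 2.92 in replicate 2. Of its 11 members, 7 were found in both replicates, 1 in replicate 2 only and 3 in neither. The 3 that neither replicate had measured 1330 bp, 1177 bp and 1009 bp and scored 0.30, 0.24 and 0.27, so the unmatched part of this run was its short, low-scoring part.

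The other large runs had the same mix. A run of 11 members from 10217556 to 10261361 had 10 in both replicates, with combined scores from 0.06 to 1.75. In a run of 10 from 7012784 to 7072664, the second member, from 7018137 to 7024214, scored 2.67 in the combined list, 2.65 in replicate 1 and 2.74 in replicate 2, and the third scored 0.09. A run of 10 from 13790387 to 13831272 had 7 members in both replicates, 2 in replicate 1 only and 1 in neither. No cluster of 10 kb or more lay in any of these 5 runs.

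**Figure D3:**
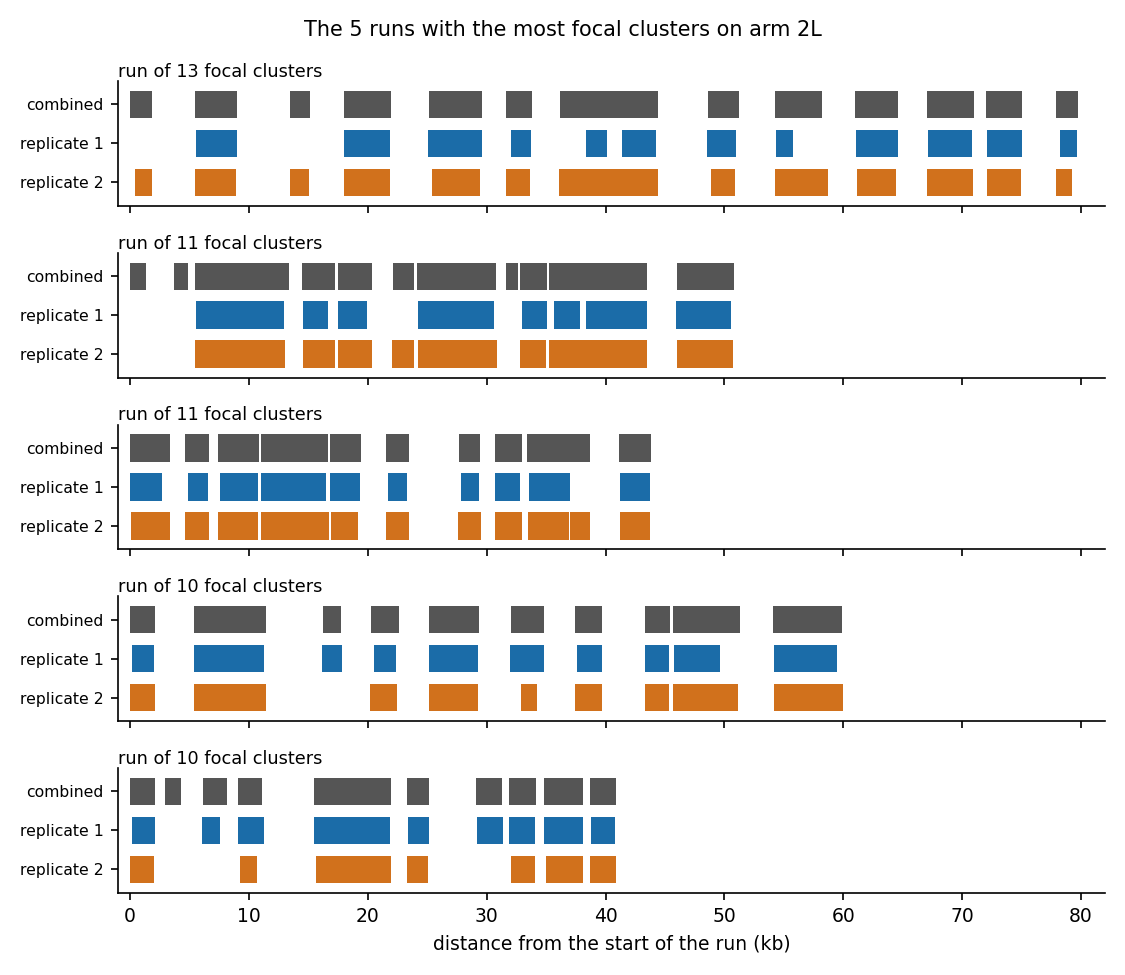
The 5 runs with the most focal clusters (13, 11, 11, 10 and 10), drawn as distance from the start of each run in kb, with the clusters of the combined list above those of replicate 1 and replicate 2. Most blocks recur in all 3 rows. Blocks that are missing from a replicate row measure at most 2128 bp, and some shorter blocks recur in all 3 rows.

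Isolated members were rare and not weak. Their median length was 4086.5 bp and their median score 0.75, against 2632 bp and 0.53 for grouped members and 2657.5 bp and 0.63 for those between. In the replicate lists the median length of isolated clusters was 3210 bp and 3100 bp and their median score 0.96 and 0.83. Grouped clusters had median lengths of 2754 bp and 2595 bp and median scores of 0.74 and 0.70 (replicate 1, then replicate 2). The order of the medians was the same in each list, with no test over 2 replicates. Score rose with length among isolated members (Spearman's rho of 0.71) and among grouped members (rho of 0.85), as a description over 40 and 589 clusters.

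Of the 40 isolated members, 25 were found in both replicates and 21 were isolated in both replicate lists too. The most remote of those found in both ran from 14599376 to 14606645 (7270 bp), with 103.8 kb free on one side and 366.8 kb on the other. It scored 1.86 in the combined list, 2.25 in replicate 1 and 1.46 in replicate 2. Its neighbour across the shorter gap, from 14490679 to 14495532 (4854 bp), was the second most remote and scored 1.02, 0.87 and 1.13. These 2 clusters lie in one of the 3 sparsest windows.

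The next most remote lay elsewhere on the arm. The member from 6202162 to 6211542 (9381 bp) had 78.2 kb and 112.3 kb free on its sides and scored 1.12 in the combined list, 1.50 in replicate 1 and 1.15 in replicate 2. Replicate 1 covered it with 2 clusters over 92.0% of its length, and replicate 2 with 1 cluster over 69.5%, so the replicate 1 score is that of the longer of its 2 clusters. The member from 2492748 to 2499987 (7240 bp) scored 2.00, 1.97 and 2.04, with at least 67.8 kb free on each side. The member from 7720553 to 7725763 (5211 bp) scored 1.06, 0.98 and 1.28. The 5 most remote shared members all measured at least 4854 bp, where all 623 members found in both had a median of 3430 bp. Longer members were found in both more often, so no link between length and distance is read from these 5. Without that filter a member found in replicate 1 only, 173.1 kb from its nearest neighbour, would rank first. A member of 2214 bp, from 16143981 to 16146194, would also rank among them, with 96.1 kb to its nearest neighbour.

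The limits that define a member cut through a continuum of lengths and positions. The longest members measured 9959 bp, 9793 bp and 9698 bp and scored 1.46, 1.48 and 1.84, and the shortest clusters left out as too long measured 10091 bp, 10227 bp and 10348 bp and scored 0.90, 1.87 and 2.33. Nearest to the position limit, the last members began at 21001606, 20962570 and 20927702 and scored 0.25, 1.50 and 1.20. The first short clusters beyond it began at 21010856, 21028658 and 21037669 and scored 0.19, 0.18 and 0.23.

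Both replicates covered 610 members, or 69.6%, over at least 50% of their length, where all enriched clusters of the combined list gave 72.1% and those under 10 kb gave 69.4%. The 10 highest-scoring of these members had combined scores from 2.40 to 2.80 and replicate means from 2.40 to 2.80. Each matched a single cluster in each replicate, and the SD between the replicate scores of a member was between 0.0052 and 0.219 (n = 2). After the members from 12734736 and 7018137 came the cluster from 20350007 to 20356970 (6964 bp), at 2.67 in the combined list, 2.72 in replicate 1 and 2.61 in replicate 2. The cluster from 6451435 to 6455653 (4219 bp) was the lowest of the 10 and had nearly equal replicate scores of 2.40 and 2.39. Of the 10 members, 7 were grouped, beside 67.2% of all members, 3 lay between and none was isolated. The 3 that lay between each had a neighbour within 6.95 kb. That from 241274 to 246066 had neighbours on both sides, at 0.406 kb and 6.48 kb. The cluster from 1592348 to 1598741 (6394 bp) had 88.9 kb free on the left and 6.03 kb on the right and scored 2.41, 2.51 and 2.37.

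Agreement with the replicate lists was counted from an overlap of 1 bp. Of the 877 members, 623 overlapped a cluster in both replicates, or 71.0% (95% Wilson interval 67.9 to 73.9%, which covers counting error only). Over all enriched clusters of the combined list this share was 73.4%, and over those under 10 kb 70.7%. Another 93 members overlapped replicate 1 only, 80 overlapped replicate 2 only and 81, or 9.24%, overlapped neither. For neither, all enriched clusters gave 10.4% and those under 10 kb gave 11.4%. For a single replicate only, no share over all enriched clusters is given, so nothing is read from the 93 and the 80. Against the highest 50% of each replicate list by score, 28.6% of the members overlapped both. That setting leaves out 50% of each replicate list, which lowers the share by construction. No share over all enriched clusters is given for it, so nothing is read from the 28.6%. The combined list was made from the replicate set, so these shares describe how the lists relate and are no independent check of the members. The 623 members held 84.8% of the members' sequence and the 81 members found in neither replicate held 3.68% of it.

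Longer and higher-scoring members were matched more often. None of the 56 members shorter than 1301 bp, the shortest cluster of either replicate list, overlapped both replicates. The upper bound of the Wilson interval was 6.42%, which covers counting error only. The limit of 1301 bp came from the replicate lists, so nothing is read from this count. The share in both was 27.7% from 1301 bp to under 2000 bp, 87.9% from 2000 bp to under 3000 bp, 92.9% from 3000 bp to under 5000 bp and 99.4% from 5000 bp. By score, the share was 26.9% in the lowest 25% of members, 62.6% and 95.9% in the next classes of 25% and 98.6% in the highest. Length helped to choose the members, so these shares are a description.

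The combined scores of members found in a single replicate are given as a description, because the same values over all enriched clusters were not computed. Of those in replicate 2 only, 70 of 80 fell in the lowest 25% of the combined scores, and their median score was 0.21. Of those in replicate 1 only, 34 fell in the lowest 25% and 50 in the next 25%, with a median of 0.35. Members found in neither had a median of 0.26 and a median length of 1306 bp. Beside spacing, the share found in both was 70.6% for grouped members (66.8 to 74.2%), 73.4% for those between (67.6 to 78.5%) and 62.5% for isolated ones (47.0 to 75.8%).

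**Figure D4:**
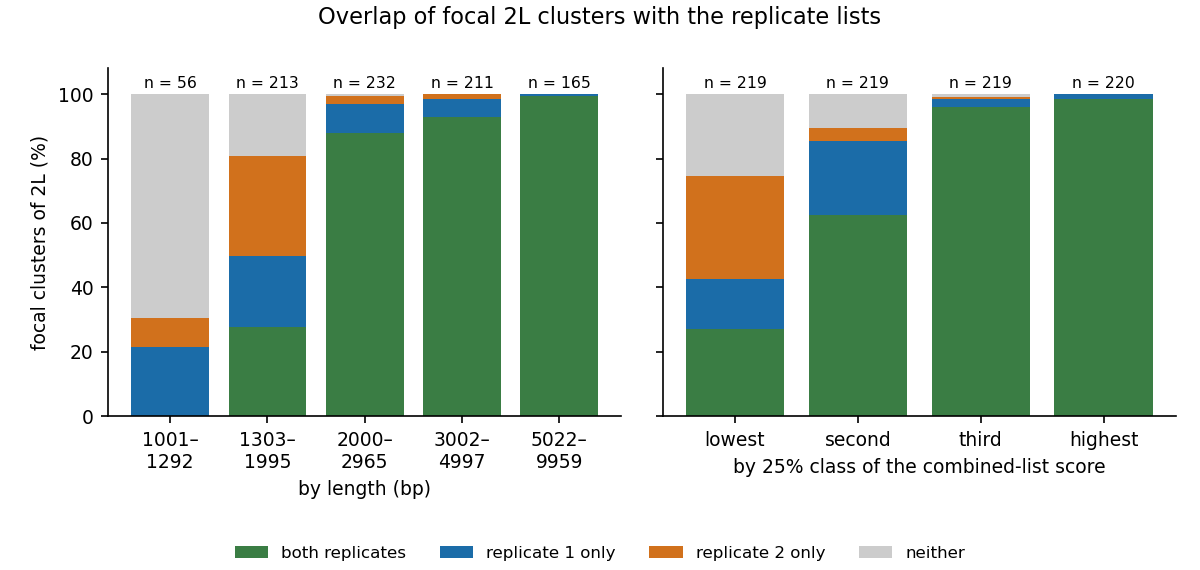
Share of focal 2L clusters (percent) whose overlap was with both replicates, 1 replicate or neither, by length class of the member in bp on the left (ends of each class as found) and by 25% classes of the combined-list score on the right; n is the number of members. The share in both replicates is 0 below 1301 bp and 98.6% in the highest 25% of scores.

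Where a member was found in both replicates, its edges and its score were usually close. Of the 623, 587 matched one cluster alone in each replicate. Starts of members and of their replicate clusters lay a median of 76 bp apart for replicate 1 and 79 bp for replicate 2, and ends lay 73 bp and 89 bp apart. Starts lay within 200 bp for 80.7% of them in replicate 1 and for 74.5% in replicate 2. Among the 587 members, 62.9% had replicate lengths within 10% of each other, and the median was 3323 bp in the combined list, 3003 bp in replicate 1 and 2884 bp in replicate 2. Replicate clusters were therefore somewhat shorter than the combined ones at the same places.

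Replicate scores of the 623 shared members had a Spearman's rho of 0.92 and a Pearson's r of 0.94, as a description across clusters of one genome. Replicate 1 scored higher for 327 of them, or 52.5%, and the mean difference between replicate 1 and replicate 2 was 0.03 with an SD over members of 0.20. For 81.4% the scores lay within 0.25 of each other.

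The 5 largest score differences all had the higher value in replicate 1. The largest was at the most remote shared member, from 14599376, described above, with 2.25 against 1.46. The cluster from 14055551 to 14063977 (8427 bp) scored 1.54 in replicate 1 and 0.83 in replicate 2, and that from 4340851 to 4347654 (6804 bp) scored 2.18 and 1.54. Those from 3012362 to 3015660 and from 18126866 to 18130107 scored 1.24 against 0.68 and 1.13 against 0.58. In each of the 5 the replicate 2 cluster was shorter and covered 63.5 to 89.9% of the member, where replicate 1 covered at least 98.6%.

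A few strong members were missing from a replicate. The cluster from 20160518 to 20164106 (3589 bp) scored 2.03 in the combined list and had no counterpart in replicate 2. In replicate 1 it was split into 2 clusters, and the longer of these (2340 bp) scored 2.18. Likewise, an isolated cluster from 20576337 to 20577932 (1596 bp) scored 1.77 in the combined list and 2.63 in replicate 1, and one from 16143981 to 16146194 (2214 bp) scored 1.77 and 1.74. These 3 are the only members of the highest 25% of scores that were not found in both, and they were picked out after their values were seen. No member of replicate 2 only came near them: the highest, from 15535176 to 15538914 (3739 bp), scored 0.58 in the combined list. It lay within a replicate 2 cluster of 24886 bp that overlapped 3 combined clusters and scored 1.04, a value of that longer cluster and not of the member. Of the members found in neither replicate, the highest-scoring ran from 15682570 to 15683730 (1161 bp) at 0.67, and the next 4 scored between 0.46 and 0.58.

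**Figure D5:**
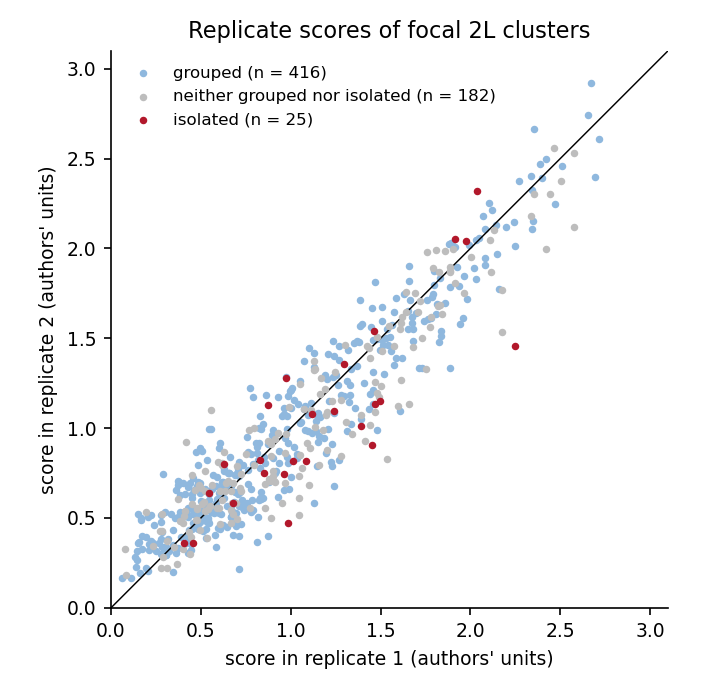
Score of each of the 623 focal 2L clusters found in both replicates, in replicate 1 (x axis) and in replicate 2 (y axis), in the authors' units; colours give the spacing of the member and the line marks equal scores. The points follow the line, and the isolated member farthest below it has scores of 2.25 and 1.46.

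Spacing was also compared between the lists, which are not independent, because the combined list was made from the replicate set. Of 33 isolated members with a match in replicate 1, 30 were isolated there, and of 29 with a match in replicate 2, 26 were. Among grouped members the share that was grouped in the replicate was lower, at 387 of 474 in replicate 1 and 385 of 476 in replicate 2, and most of the rest lay between (83 and 88). Conversely, 762 of the 773 focal clusters of replicate 1 and 771 of the 777 of replicate 2 overlapped a cluster of the combined list. The 11 and 6 that did not reached scores of at most 0.60 and 0.58. Sequence free of combined clusters was therefore mostly free of replicate clusters too, so nothing is read from the isolated counts. Each replicate list also held fewer focal clusters than the combined list, so the grouped counts are a description only.

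Against the focal clusters of 3L and 3R, chosen with the same limits of length and distance from the centromere, those of 2L were sparser in both replicate lists. Density was 36.8 and 37.0 per Mb on 2L, 40.8 and 41.1 on 3L, and 38.5 and 39.4 on 3R (replicate 1, then replicate 2). The covered share was 12.75% and 12.66% on 2L, 14.8% and 14.5% on 3L, and 13.2% and 13.1% on 3R. Median scores were 0.80 and 0.75 on 2L, 0.84 and 0.84 on 3L, and 0.85 and 0.80 on 3R. Median gaps were 1950 bp and 1690 bp on 2L, 1829 bp and 1801 bp on 3L, and 2019 bp and 1850 bp on 3R. Density and covered share were thus lowest on 2L in both lists, and median gaps on 2L fell on no constant side of those on 3L. An exact paired test over 2 replicates cannot give a p below 0.5, so no difference between arms was tested and none is called particular to 2L.

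On 2L itself, clusters of 10 kb or more numbered 78 up to the same limit. All 78 overlapped both replicates (lower bound of the Wilson interval 95.3%, counting error only). Their median score was 1.98 in the combined list, 2.09 in replicate 1 and 2.13 in replicate 2. Focal clusters had medians of 0.57, 0.80 and 0.75 in these lists. Score rose with length among the 877 members (Spearman's rho of 0.84, as a description), and the groups were divided by length, so their scores were not tested against each other.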

How the data were processed

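ChIP-seq data of 2 H3K36me2 ChIP samples and 2 input samples were used through 3 deposited lists of regions, 1 for each ChIP replicate and 1 for the replicate set. Each region carries a score written by the authors' region caller; the sources used here do not give its scale, the caller, its threshold or the way the replicates were combined. Positions refer to FlyBase r5, per the file headers, and Bowtie 0.12.7 is named in the submitters' processing notes. Depth per sample is unknown, so no interval that needs it was computed. Regions named depletion were left out of every count above. Gaps count the bases between neighbouring enriched clusters, and a member takes its replicate score from the replicate cluster that overlaps it most. Regions named by a fixed rule were the highest-scoring, most remote, most crowded and most discordant members and those at the limits. Others were named outside that rule, such as members found in 1 replicate only, depletion regions and the member farthest from any other cluster. The members and rules were chosen with earlier results of these data known. Nothing says whether replicates came from separate cultures. All results are descriptions, with no test. Python 3.11.15, numpy 2.4.6, pandas 2.3.3, SciPy 1.17.1 and matplotlib 3.10.9 were used, and the overlap and gap functions were tested on simulated lists. Alternatives covered score, length, depletion regions, distances, overlap and each replicate alone.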

Additional observations from a re-analysis of the deposited data

Results flagged for a closer look

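The combined list named 4 regions of 2L as depletion, which entered no count above, and all 4 overlapped clusters that replicate 2 lists as enrichment, over 83.1 to 100% of their length, while none overlapped replicate 1. They ran from 9887637 to 9889222, from 11497757 to 11499585, from 13178768 to 13180488 and from 18447642 to 18449289. Their combined scores were -0.08, -0.0032, -0.01 and -0.02, and the replicate 2 clusters there scored 0.19, 0.17, 0.14 and 0.03, at or below percentile 1.97 of the replicate 2 scores on 2L. They are given because the combined list and replicate 2 name them differently, at scores near the low end of the replicate 2 list.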

How the results depend on the processing

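The figures in brackets give each value as reported. Members per Mb (41.7) were 36.8 to 37.0 without a replicate, 20.9 for the highest 50% of scores, 39.1 without clusters too short for the replicate lists, 41.9 with depletion regions and 33.9 under 5 kb. In that order the covered share (14.0%) was 12.66% to 12.75%, 9.76%, 13.7%, unchanged within the replicate SD and 8.66%. The median gap (1544 bp) was 1690 to 1950 bp without a replicate and stayed within the replicate SD under the other 5 alternatives run. The isolated share (4.56%) was 4.76 to 5.30% without a replicate, 6.15% for high scores, 4.07% under 5 kb and 1.14% with 50 kb free on each side. The grouped share (67.2%) was 57.3 to 58.8% without a replicate, 62.2% for high scores, 64.8% without the shortest clusters, 68.5% under 5 kb, 31.0% with gaps under 2 kb and 79.9% with gaps under 10 kb. The share found in both (71.0%) became 80.2 to 81.6% for a single replicate, 97.3% for high scores, 75.9% without the shortest clusters, 64.5% under 5 kb, 69.6% where at least 50% of the member had to be covered, and 28.6% against the highest 50% of each replicate list. Spearman's rho of replicate scores (0.92) was 0.89 for high scores and 0.86 under 5 kb. Alternatives not named for a value moved it by less than the replicate SD or, for rho, left it at 0.92. The cause of these shifts was not tested, and the depth of the libraries is unknown. No paired analysis was possible because the input samples, which share the ChIP replicate numbers, have no list of their own.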

Other observations

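Scores of neighbouring focal clusters of 2L were weakly related at every distance. Between neighbouring members less than 1 kb apart, Spearman's rho of the scores was -0.02 over 172 pairs of the combined list, -0.01 over 131 pairs in replicate 1 and -0.03 over 143 in replicate 2. For gaps of 1 to 5 kb it was 0.06, 0.0051 and 0.12, over 327, 255 and 268 pairs. For gaps of 5 to 20 kb it was 0.21, 0.24 and 0.27, over 166, 176 and 172 pairs, and for 20 kb or more it was 0.0024, -0.05 and 0.02. Pairs overlap in their clusters and these values carry no test; weak correlations of this size are given as values only.

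The combined score of a shared member did not always lie between its replicate scores. For 240 of the 623 members found in both replicates it lay below both replicate scores, and for 2 it lay above both. The replicate scores belong to replicate clusters with other ends. Among members that matched 1 cluster alone in each replicate, median lengths were 3323 bp in the combined list, 3003 bp in replicate 1 and 2884 bp in replicate 2. Scores over unlike spans cannot show how the combined score was formed. The sources used here do not give the way the replicates were combined.

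The member farthest from any other cluster on 2L was found in replicate 1 only. It ran from 17187767 to 17192165 (4399 bp), with 269.3 kb and 173.1 kb free on its sides, and scored 0.55 in the combined list and 0.86 in replicate 1.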
